A study of Mus musculus with 4 samples.

Results

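This account covers solitary sites of TopoIIa activity that were found in wild-type mouse embryonic stem cells and had no counterpart in the list from cells without Brg1. The members were chosen by measured values. They are the wild-type peaks of chromosomes 1 to 19 whose nearest other wild-type peak lay more than 200 kb away, edge to edge, whose score was below 400, whose width was at most 5000 bp and which no knockout peak touched. In all 1447 of the 16591 wild-type peaks met these conditions, or 9.04% of the 16012 on chromosomes 1 to 19. Distance, score, width and missing overlap are therefore conditions of the set and not findings about it.

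Topoisomerase IIα cuts both strands of one DNA duplex, passes another duplex through the break and reseals it, which removes the links between sister DNA molecules before they part in mitosis. Etoposide blocks the resealing, so that the enzyme stays bound to the break through a covalent bond and the broken DNA can be recovered with it. Brg1 (Smarca4) is the ATPase that drives nucleosome remodelling by the BAF, or mSWI/SNF, complexes of embryonic stem cells, and the study asked where TopoIIa acts with and without it.

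Both genotypes came from 1 embryonic stem cell line derived from Brg1f/f-actinCreER mice, in which an actin-driven, tamoxifen-inducible Cre deletes the floxed Brg1 alleles. The line carried V5-tagged human TopoIIa, and its own mouse TopoIIa was knocked down, so the V5 libraries report on the human protein. The wild-type group received ethanol and the Brg1-/- group tamoxifen for 24 h, both were then kept in stem cell medium for 48 h, and both were exposed to 100 µM etoposide for 10 min before lysis. The cells were maintained on mouse embryonic feeders and plated on gelatin for the treatment. Each genotype had 1 V5 immunoprecipitation and 1 input, and only the 2 V5 peak lists are used here. Loss of Brg1 and exposure to tamoxifen cannot be told apart in this design. Peak lists carry no measure of Brg1 or of stem cell markers, so neither the genotype nor the cell type could be checked.

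The list from Brg1-/- cells held 4622 peaks, so most wild-type peaks had no counterpart in it wherever they lay: 95.4% of the wild-type peaks of chromosomes 1 to 19 touched no knockout peak. "Brg1-dependent" is thus a label for a peak called in one library and not in the other. With 1 library per genotype there is no replicate error, and the depth of the libraries is unknown. Intervals given below are exact 95% intervals for counting error alone, with each peak taken as an independent count.

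The distance condition did most of the choosing. It kept 1673 peaks of chromosomes 1 to 19 (10.4%). Of these, 87 scored 400 or more and 8 were wider than 5000 bp, 89 peaks in all, which left 1584. A knockout peak touched 137 of the 1584, and the other 1447 are the isolated sites described here. The comparison group consists of the 12791 peaks of the same chromosomes with a neighbour within 200 kb, the same limits of score and width and no knockout overlap.

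The isolated sites were ordinary peaks in strength and somewhat narrower than the comparison group taken as a whole. The score is the peak caller's own value and ranks peaks only within their list. It ran from 50.05 to 396.46 among the isolated sites, with a median of 108.95 and an interquartile range of 71.9 to 167, against a median of 96.15 (66.6 to 153) in the comparison group. The exact interval of the isolated median was 104.54 to 112.9. A score of at least 100 was reached by 795 isolated sites (54.9%, interval 52.3 to 57.5%) and by 47.5% of the comparison group (46.6 to 48.3%). At a score of at least 200 the shares were 17.2% (15.3 to 19.3%) and 14.5% (13.9 to 15.1%), and at a score of at least 300 they were 4.15% (3.18 to 5.31%) and 4.22% (3.88 to 4.58%), with overlapping intervals at the last limit only. The median score of the isolated sites was above that of the comparison group on 17 of 19 chromosomes. Before the overlap condition, the median score was 93.64 with a neighbour within 10 kb and 107.62 with the nearest at 100 to 200 kb. It was 109.94 at 200 to 300 kb, 118.48 at 300 to 500 kb and 101.51 beyond 500 kb. Scores at this level were thus not particular to isolated peaks.

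Widths went the other way. The isolated sites measured 905 to 4371 bp with a median of 1999 bp (interquartile range 1680 to 2328 bp, interval of the median 1969 to 2029 bp), and the comparison group had a median of 2134 bp (1795 to 2505 bp). Peaks of 3000 bp or more made up 2.83% of the isolated sites (2.04 to 3.82%) and 9.19% of the comparison group (8.69 to 9.70%). Wide peaks usually score high, yet the isolated peaks were the narrower ones at every level of score. Before the overlap condition was applied, the median width in the lowest of 5 equal bins of score was 1704 bp for isolated and 1764 bp for non-isolated peaks, and in the highest bin it was 2329 bp and 2584 bp. By chromosome, the isolated median was the lower one on 16 of 19. The smaller width was not particular to isolated peaks. Before the overlap condition, the median was 2018 bp with the nearest neighbour at 100 to 200 kb, against 2009 to 2024 bp in the isolated distance bands. With a neighbour within 10 kb it was 2273 bp. Whether close neighbours were merged into wider peaks during calling was not tested.

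**Figure D1:**
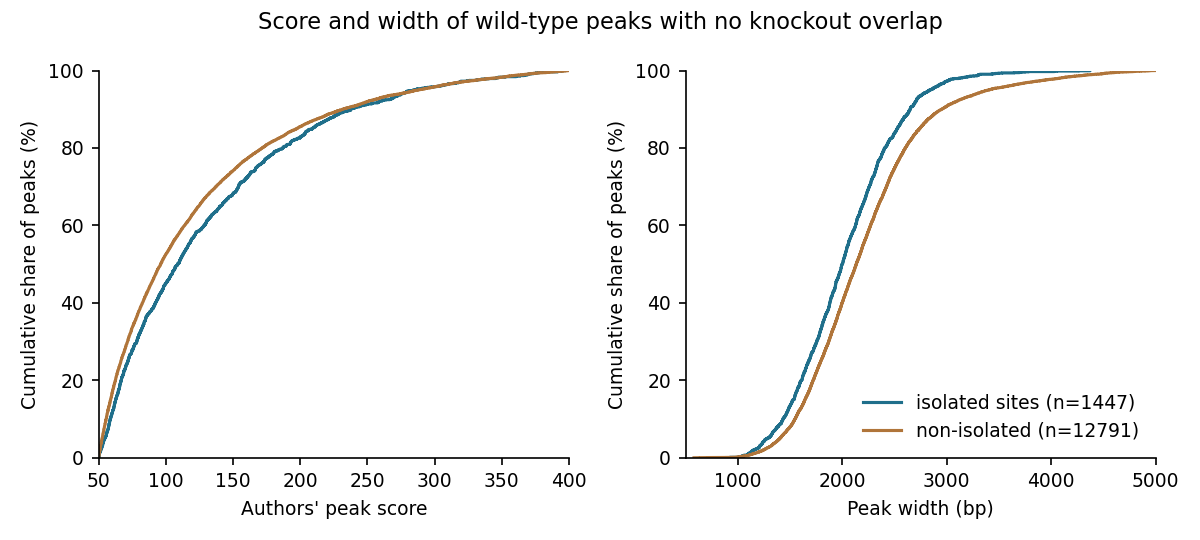
Cumulative share of peaks (y axis, %) by the authors' peak score (left) and by width in bp (right), for the 1447 isolated sites and the 12791 non-isolated wild-type peaks with no knockout overlap. The curve of the isolated sites lies to the right for score (medians 108.95 and 96.15) and to the left for width (medians 1999 and 2134 bp).

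Solitary peaks overlapped the knockout list more often than peaks with neighbours did. This comparison uses all isolated peaks before the overlap condition, since the members have no overlap by rule. Among all 1673 isolated peaks 154 (9.21%, interval 7.86 to 10.7%) touched a knockout peak, against 586 of 14339 non-isolated peaks (4.09%, 3.77 to 4.42%) and 4.62% of all wild-type peaks on these chromosomes. Within the limits of score and width the counts were 137 of 1584 (8.65%, 7.31 to 10.1%) and 471 of 13262 (3.55%, 3.24 to 3.88%). The intervals of the isolated and non-isolated shares did not overlap in either version.

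The share was lowest for crowded peaks and changed little beyond 200 kb. With another wild-type peak within 10 kb, 59 of 4417 peaks (1.34%, 1.02 to 1.72%) touched a knockout peak. The share was 3.86% at 10 to 50 kb, 5.34% at 50 to 100 kb and 5.66% (4.69 to 6.76%) at 100 to 200 kb. Among isolated peaks it was 9.10% (7.21 to 11.3%) at 200 to 300 kb, 7.67% (5.67 to 10.1%) at 300 to 500 kb and 9.94% (5.90 to 15.4%) beyond 500 kb, and these 3 intervals overlap one another.

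**Figure D2:**
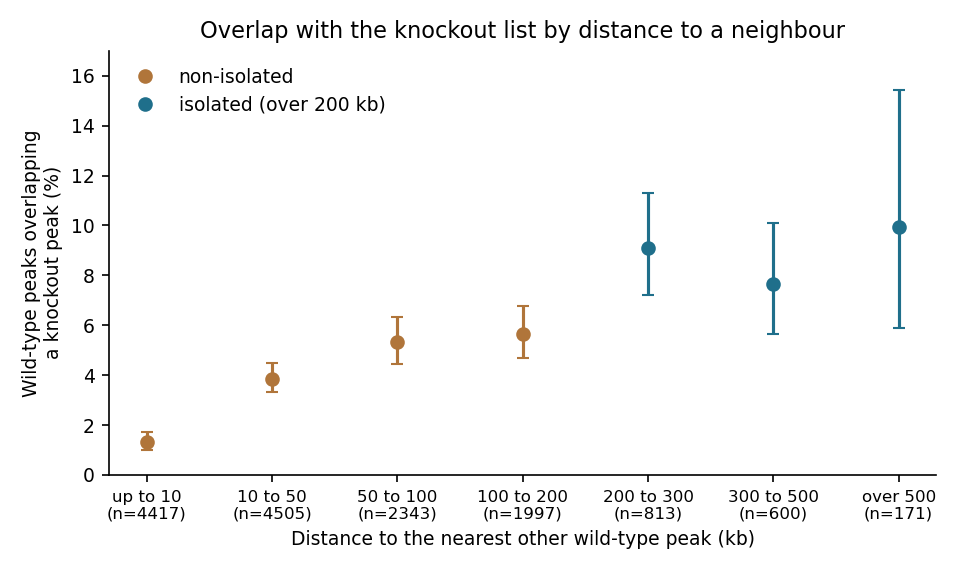
Share of wild-type peaks that overlap a knockout peak (y axis, %) by distance to the nearest other wild-type peak (x axis, kb), for peaks of chromosomes 1 to 19 below score 400 and up to 5000 bp. Points are shares and bars exact 95% intervals: 1.34% with a neighbour within 10 kb and between 7.67% and 9.94% in the isolated bands.

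The difference was present at each level of score. In the lowest bin (scores 50 to 63.26) 10 of 236 isolated peaks (4.24%, 2.05 to 7.65%) and 29 of 2735 non-isolated peaks (1.06%, 0.711 to 1.52%) touched a knockout peak. In the highest bin (176.95 to 399.97) the counts were 59 of 379 (15.6%, 12.1 to 19.6%) and 185 of 2590 (7.14%, 6.18 to 8.20%). The intervals were also apart in the bin from 117.81 to 176.93, with 10.5% (7.52 to 14.1%) and 4.64% (3.87 to 5.52%). In the bins from 63.27 to 84.52 and from 84.53 to 117.8 the isolated share was again the higher one, 4.04% against 2.10% and 5.83% against 3.01%, with intervals that overlap.

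**Figure D3:**
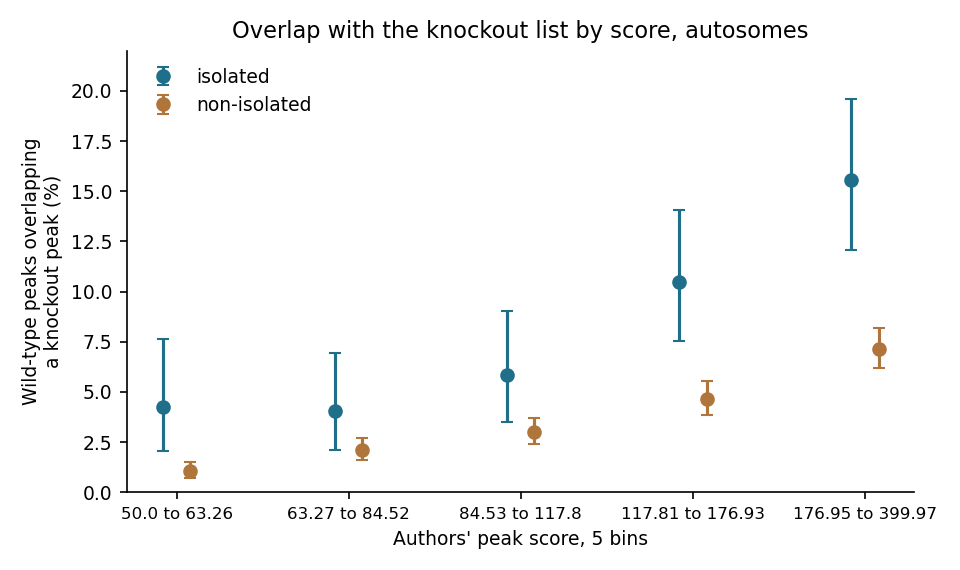
Share of wild-type peaks that overlap a knockout peak (y axis, %) in 5 equal bins of the authors' score (x axis), for isolated and non-isolated peaks. Bars are exact 95% intervals; the isolated share is higher in each bin, from 4.24% against 1.06% in the lowest to 15.6% against 7.14% in the highest.

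The knockout peaks on isolated and on non-isolated wild-type peaks were close in score, width and position. The 137 isolated peaks within the limits carried 146 knockout peaks, at most 2 each, with a median score of 62.5 (interquartile range 55.01 to 80.0) and a median width of 141 bp. The 480 knockout peaks on non-isolated peaks had a median score of 64.2 (55.7 to 84.4) and the same median width. In the central 25% of the wild-type peak's width lay 80 of the 146 (54.8%, interval 46.4 to 63.0%) and 54.4% (49.8 to 58.9%) of the 480. The isolated shared peaks themselves scored higher than the unshared isolated sites, with a median of 160.82 (interval 146.94 to 178.44). This was not particular to isolated peaks: non-isolated shared peaks had a median of 152.34 (140.01 to 160.25), against 96.15 in the comparison group. The top-scoring isolated shared peak within the limits, chr15:44305910-44308308 (2399 bp, score 394.73), held a knockout peak of 158 bp with a score of 59.13. Another, chr17:90215311-90217490 (score 353.06), stood 1269 kb from the nearest wild-type peak and still carried a knockout peak (165 bp, score 65.32). Without the score limit the top isolated shared peak was chr2:51407881-51411737 (3857 bp, score 2733.61), on a knockout peak of score 53.11.

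Apart from direct overlap, isolated and crowded sites lay at similar median distances from the knockout list, with overlapping intervals. The median distance from an isolated site to the nearest knockout peak was 279 kb (interval 262 to 299.7 kb) and from a peak of the comparison group 264 kb (257 to 271 kb). A knockout peak within 200 kb was found for 37.8% of the isolated sites (35.3 to 40.4%) and 41.8% of the comparison group (40.9 to 42.7%), whose intervals do not meet. For 763 of the 1447 isolated sites (52.7%, 50.1 to 55.3%) the nearest knockout peak was nearer than any other wild-type peak. The distance rule largely sets this share: the 547 sites with a knockout peak within 200 kb meet it by rule. Within 200 kb of the edges of isolated sites there were 718 knockout peaks in 548 Mb, or 1.31 per Mb (1.22 to 1.41). Around the comparison group the density was 1.84 per Mb, but there knockout peaks can lie on other wild-type peaks, which the rule keeps out of the windows of isolated sites. Counting only knockout peaks on no wild-type peak gave 1.36 per Mb (1.30 to 1.42) around the comparison group. Counted so in narrower windows, the isolated value was nearly equal at 100 kb and higher at 50 kb. The window lengths include the wild-type peaks themselves, which are more numerous around the comparison group. The order at 100 kb therefore cannot be told from these values. Within 100 kb the densities were 1.338 per Mb around isolated sites and 1.333 around the comparison group, and within 50 kb 1.51 (1.32 to 1.73) and 1.28 (1.20 to 1.37), with overlapping intervals in each of the 3 window sizes.

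The density of knockout peaks off the wild-type peaks differed by less than the counting error between long stretches without wild-type peaks and shorter ones. Gaps over 200 kb between neighbouring wild-type peaks made up 23.7% of all gaps on chromosomes 1 to 19 (3793 of 15993) and 70.9% of the length between the first and last wild-type peak (1709 Mb). They contained 2368 knockout peaks, 1.39 per Mb (1.33 to 1.44), and 61.3% of these gaps contained none. Shorter gaps contained 915 knockout peaks, 1.38 per Mb (1.29 to 1.47).

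Close to the isolated sites the knockout peaks were unevenly spaced, with the highest density 4 to 5 kb from the edge. This band was picked after the distances had been seen, so its count is a description. Between 20 and 50 kb from the edges of isolated sites there were 1.23 knockout peaks per Mb of flank (1.01 to 1.49), and between 100 and 200 kb 1.25 per Mb (1.13 to 1.39). In the band from 4 to 5 kb there were 22 knockout peaks in 2.894 Mb, 7.60 per Mb (4.76 to 11.5). The neighbouring bands had 3.11 (3 to 4 kb) and 2.07 (5 to 6 kb) per Mb, and the bands from 6 to 10 kb between 0.691 and 1.73. Nearer the edge the density was 2.07 at 0 to 1 kb, 3.46 at 1 to 2 kb and 2.42 at 2 to 3 kb. Of these, only the interval at 1 to 2 kb (1.66 to 6.35) lay clear of that at 20 to 50 kb. In the comparison group a knockout peak counts once for each peak it lies beside, and it can lie on another wild-type peak. The band from 4 to 5 kb had 3.05 per Mb there (2.41 to 3.81). In those comparison peaks whose neighbour was 100 to 200 kb away it had 6.90 (4.51 to 10.1). Beside those peaks the density was high over several bands, with 4.51 at 1 to 2 kb, 3.98 at 2 to 3 kb and 5.84 at 3 to 4 kb.

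These 22 pairs involved 22 different isolated sites on 13 chromosomes. The knockout peak lay on the side of lower coordinates in 13 pairs and of higher coordinates in 9. Centre to centre the 2 peaks were 4.84 to 6.25 kb apart, with a median of 5.54 kb. The isolated sites had scores from 58.1 to 270 (median 117), close to the whole set, and the knockout peaks scores from 51.6 to 88.4 (median 56.0) and widths from 98 to 167 bp. Examples are chr3:141665283-141668080 (score 270.03), with a knockout peak at chr3:141672554-141672706, and chr7:11515003-11516802 (score 263.75), with one at chr7:11510737-11510901. They were named after their values were seen. None of the knockout peaks within 10 kb of an isolated site belonged to one of the dense knockout groups, in which 10 or more follow one another within 10 kb.

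**Figure D4:**
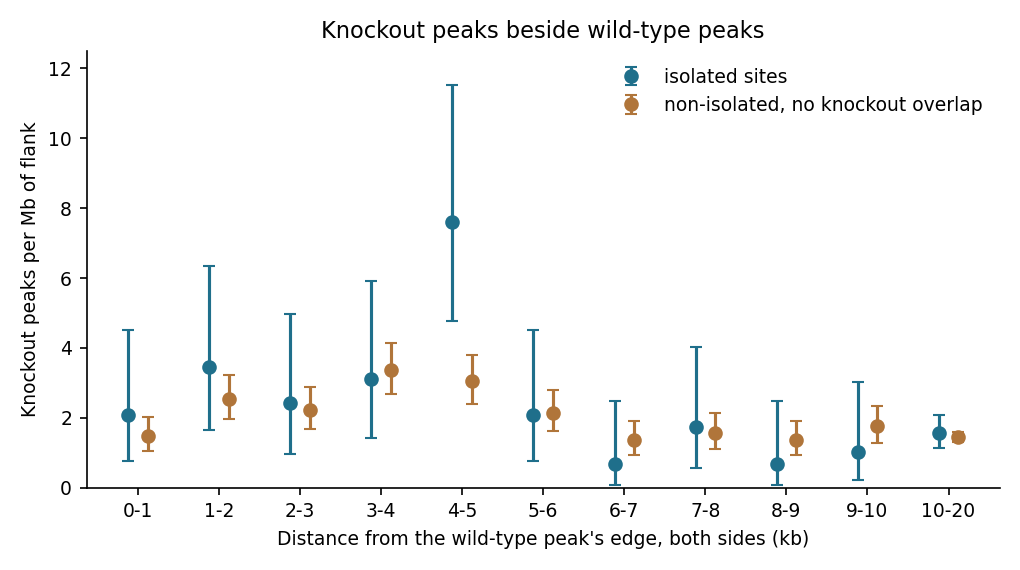
Knockout peaks per Mb of flank (y axis) in bands of distance from the edge of the wild-type peak, both sides counted (x axis, kb), for the 1447 isolated sites and the 12791 non-isolated peaks with no knockout overlap. Bars are exact Poisson 95% intervals, and the band from 4 to 5 kb stands at 7.60 per Mb for isolated sites and at 3.05 for the others. A knockout peak counts once for each peak it lies beside, and beside non-isolated peaks it can lie on another wild-type peak.

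Isolated sites were spread more evenly over the chromosomes than wild-type peaks as a whole. The distance rule itself favours this, since each isolated site needs 200 kb free on either side. The density of isolated sites ran from 0.449 per Mb on chromosome 12 to 0.724 on chromosome 3. That of all wild-type peaks ran from 4.19 per Mb on chromosome 13 to 10.1 on chromosome 8. Chromosome 1 had the most isolated sites (132), followed by chromosomes 2 and 3 with 113 each, and chromosome 19, the shortest by called length, had 30. Sparse chromosomes gave up a larger part of their peaks to the distance condition, 18.2% on chromosome 18 and 17.7% on chromosome 3, against 5.41% on chromosome 11 and 5.93% on chromosome 8. Across the 19 chromosomes this percentage fell with peak density (Pearson r = -0.94, Spearman rho = -0.93), as the distance rule itself brings about. The number of isolated sites per Mb was also lower where peaks were denser (r = -0.67, rho = -0.65). Both relations contain the wild-type positions on each axis and are given as description.

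The higher overlap of isolated peaks with the knockout list was seen on 16 of 19 chromosomes, and on 5 of them the 2 intervals did not meet. Chromosome 18 had the highest isolated share, 16 of 71 peaks (22.5%, 13.5 to 34.0%), against 5.38% (3.16 to 8.47%) of its non-isolated peaks. On chromosome 1 the order was the opposite, with 6 of 138 (4.35%, 1.61 to 9.22%) against 5.83%, and chromosomes 13 and 19 also showed a lower isolated share, on overlapping intervals. On chromosome 19 none of the 30 isolated peaks within the limits touched a knockout peak, which allows a share of up to 11.6% (exact upper bound). Without chromosome 18 the isolated share was 7.997% (6.68 to 9.48%) and the non-isolated share 3.51% (3.20 to 3.84%).

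**Figure D5:**
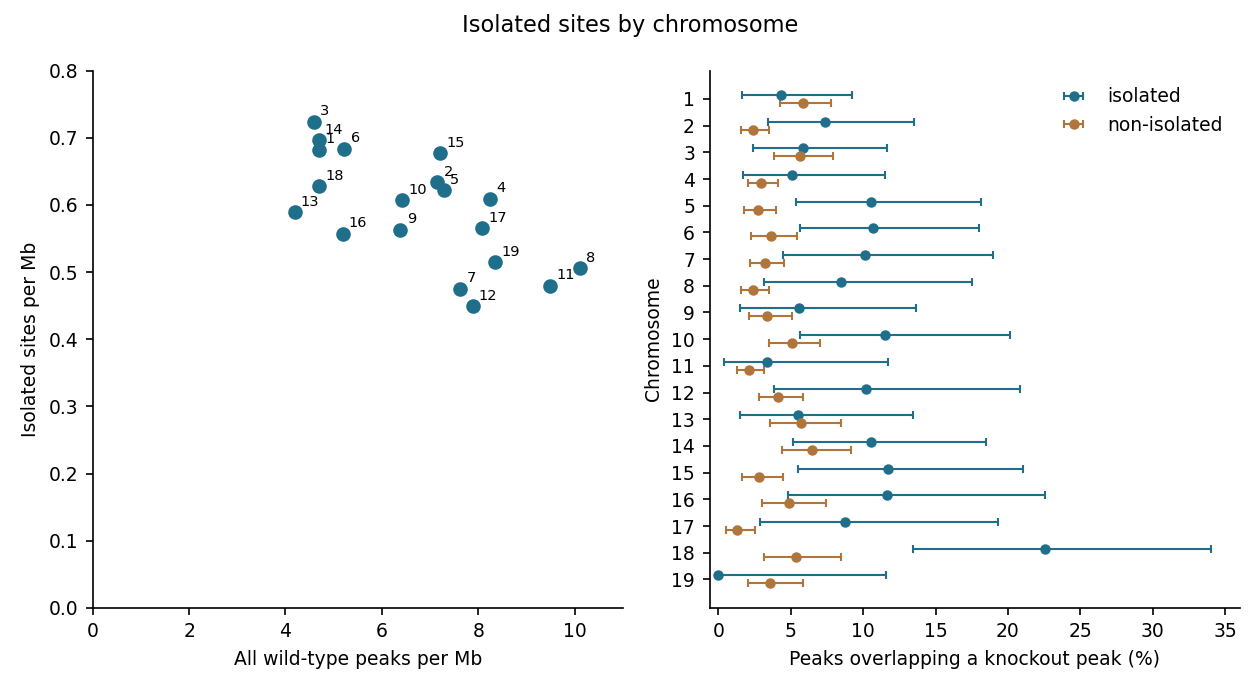
Left, isolated sites per Mb (y axis) against all wild-type peaks per Mb (x axis), 1 point per chromosome. Right, share of wild-type peaks within the limits that overlap a knockout peak (x axis, %) for isolated and non-isolated peaks of each chromosome, with exact 95% intervals; chromosome 18 has the highest isolated share (22.5%) and chromosome 19 has none.

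Along the chromosomes, isolated sites were sparsest at the distal end, where wild-type peaks were densest. Mouse autosomes have their centromere at the end with the lowest coordinates. The called length of each chromosome was cut into 5 equal parts. The most distal part held 235 isolated sites (16.2%, interval 14.4 to 18.2%) and 29.5% (28.7 to 30.3%) of the comparison group. Density there was 0.487 isolated sites per Mb against 0.589 to 0.655 in the other 4 parts, and 9.30 wild-type peaks per Mb against 5.29 to 6.46. Of the wild-type peaks within the limits 6.35% (5.62 to 7.14%) were isolated in the most distal part and 14.7% (13.3 to 16.2%) in part 2, counted from the centromere, the highest of the 5. The distance rule itself lowers the isolated share where wild-type peaks are denser, so this placement is given as description. In the most distal part, too, isolated peaks touched a knockout peak more often (10.3%, 6.90 to 14.6%) than non-isolated ones (2.41%, 1.95 to 2.94%). In part 3 the shares were 5.94% (3.61 to 9.12%) and 4.75% (3.93 to 5.69%), with overlapping intervals. With the length cut into 10 parts the order was the opposite in part 6, where 5 of 168 isolated peaks (2.98%, 0.973 to 6.81%) and 4.49% (3.42 to 5.78%) of non-isolated peaks touched a knockout peak.

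The isolated sites often followed one another. The nearest other wild-type peak lay 200.07 to 1385 kb away, with a median of 296 kb. For 708 sites (48.9%) it was more than 300 kb away, for 154 (10.6%) more than 500 kb and for 5 more than 1000 kb. In the order of wild-type peaks along a chromosome, 934 isolated sites (64.5%) stood next to another isolated site. There were 352 such runs, 133 of them with 3 sites or more, and 513 sites stood alone. Neighbours in a run share a gap, so the rule itself favours runs. The longest run had 8 sites over 3.27 Mb, chr4:83604371-86877351, with scores from 68.18 to 225.65 and 2 knockout peaks between them. Runs of 7 sites lay at chr17:75823429-79811367, chr1:79376801-82837437, chr2:76484560-79011255 and chr6:141701730-143887429. The stretch on chromosome 6 contained no knockout peak and the one on chromosome 1 contained 6.

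Individual sites show the range of the set. Positions are in mm9. The site farthest from any other wild-type peak was chr9:29290729-29293314 (2586 bp, score 278.84), with 1608 kb free on one side and 1385 kb on the other, and its nearest knockout peak was 1140 kb away. Next were chr7:9741260-9743034 (score 65.4), chr2:40216399-40219049 (score 138.55), chr14:93447686-93450379 (score 155.41) and chr13:19039462-19041836 (score 76.67), each more than 1000 kb from a neighbour. These 5 thus ran from weak to strong scores for the set.

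The knockout list came no nearer than 15.3 kb to any of the 10 top-scoring sites. Such distances were usual in the set, in which only 4.84% of all isolated sites had a knockout peak within 10 kb. The highest score, 396.46, belonged to chr18:26071045-26072277, which at 1233 bp was narrow for its score. Then came chr14:64997666-65000598 (394.45), chr16:46642312-46645250 (393.87), chr3:86723071-86725939 (391.75) and chr13:23314738-23317165 (391.54), all 2428 to 2939 bp wide. Their nearest knockout peaks lay 238, 128, 47.0, 503 and 645 kb away, in that order. The remaining 5 of the top 10 scored 375.52 to 383.96 and lay on chromosomes 9, 5, 1, 3 and 9, with the nearest knockout peak 15.3 to 309 kb away.

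The 5 widest sites scored from 122.21 to 363.41, all above the set's median of 108.95. The 5 narrowest scored from 74.63 to 245.25, on both sides of it. The narrowest site, chr6:76315721-76316625 (905 bp), scored 245.25, and the next, chr6:34833744-34834668 (925 bp), scored 74.63. The widest were chr7:85975295-85979665 (4371 bp, score 274.6) and chr12:89521350-89525610 (4261 bp, score 122.21). The site at chr15:18660137-18661900 (1764 bp) had the lowest score, 50.05.

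Distances to the knockout list covered a wide range. The closest miss was chr17:60581455-60584002 (score 231.13), whose edge lay 0.215 kb from a knockout peak of 166 bp. In all, 6 sites (0.415%) had a knockout peak within 1 kb, 54 (3.73%, 2.82 to 4.84%) within 5 kb and 70 within 10 kb. In the comparison group 2.43% (2.17 to 2.71%) had one within 5 kb, where the intervals are apart. At the limits of 1 and 10 kb they overlap, with 0.415% (0.152 to 0.900%) against 0.297% (0.210 to 0.408%) within 1 kb and 4.84% (3.79 to 6.07%) against 3.89% (3.56 to 4.24%) within 10 kb. Close knockout peaks were not particular to isolated sites. Beside comparison peaks with a neighbour 100 to 200 kb away, densities were 4.51, 3.98 and 5.84 per Mb in the bands from 1 to 4 kb. Isolated sites had 3.46, 2.42 and 3.11 there. They were higher at 0 to 1 kb (2.07 against 1.86) and 4 to 5 kb (7.60 against 6.90), and all these intervals overlap. At the other end, 102 sites (7.05%, 5.78 to 8.49%) had none within 1000 kb, against 9.03% (8.54 to 9.54%) of the comparison group, and these intervals do not meet. The 3 farthest were on chromosome 7, where chr7:76147975-76149854 (score 111.84) was 3283 kb from the nearest knockout peak, and chr7:76578782-76580686 and chr7:75892915-75895263 shared the same stretch. Next came chr13:102536684-102538968 at 2629 kb. The fifth, chr7:77337510-77339812 at 2460 kb, lay in the chromosome 7 stretch again.

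The limits of the set cut through continuous ranges. Just inside the distance limit were sites 200.068, 200.113 and 200.146 kb from a neighbour (scores 58.32, 66.4 and 59.73), and just outside were peaks at 199.979, 199.943 and 199.849 kb (scores 178.92, 101 and 212.07). Next above the score limit came isolated unshared peaks of 400.53, 402.38 and 406.36. No isolated unshared peak below score 400 was wider than 5000 bp, so the width limit removed none.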

How the data were processed

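The authors deposited 1 peak list for each V5 library, with a score per peak and no header. Per the submitters' processing notes, the tools were MACS 1.4.2 and Bowtie 0.12.8, with mm9 as the build. Depth, control, fragment size and calling thresholds were not given in the sources used here. The deposited score starts at 50 and 50.02, as it would if it were -10 times log10 of p with a p limit of 1e-05. Libraries were amplified for 17 cycles and selected near 300 bp, per the labels' protocols.

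Groups came from the sample titles, and the inputs were not analysed here. Positions are 1-based. Sharing meant an overlap of at least 1 bp. Densities used merged windows clipped to the called span of each chromosome, with knockout peaks counted by centre. Flank bands were counted per site, both sides, without merging. Where the same knockout peak counts for several sites, the Poisson intervals of these bands are too narrow. Shares carry Clopper-Pearson intervals, densities exact Poisson intervals and medians order-statistic intervals. No p-value was computed, since peaks of 1 library are not replicates. Named sites followed fixed rankings by score, isolation, width and distance to a knockout peak. Members and rankings were chosen with earlier results of these data known; the distance bands, the flank bands and the count without chromosome 18 were added after seeing the data. The reference used was of another build (GRCm38.p6), so no gene was assigned and no sequence is shown. The scripts were tested on simulated data. The tools were scipy 1.17.1, pandas 2.3.3, numpy 2.4.6 and matplotlib 3.10.9 under Python 3.11.15.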

Additional observations from a re-analysis of the deposited data

How the results depend on the processing

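The alternatives gave 68 values. Of these, 42 fell inside the reported value's interval, or within 1.5 times of the reported number of sites, 24 moved and 2 reversed the order of the groups. The number of isolated sites (1447) became 3331, 708 and 154 with isolation over 100, 300 and 500 kb, which fixes how many peaks qualify. The shared share of isolated peaks (8.65%) and of non-isolated peaks (3.55%) became 6.98% and 3.18% with isolation over 100 kb, 10.2% and 4.82% with wild-type peaks scoring at least 100 only, 1.52% and 0.603% with knockout peaks scoring at least 100 only, and 6.99% and 2.86% below a score of 200. The non-isolated share became 4.03% with isolation over 500 kb and 3.97% with no score limit. The excess of the isolated median score over the non-isolated one (12.8) fell to 3.83 with isolation over 500 kb (interval -5.33 to 18.1), 2.46 with wild-type peaks scoring at least 100 only (-1.23 to 6.16) and 8.23 below a score of 200. The intervals of the first 2 values include 0. These intervals carry the counting error of the isolated median only, with the non-isolated median taken as fixed. The difference in median width (-135 bp) became -271 bp with wild-type peaks scoring at least 100 only. Knockout peaks around isolated sites (1.31 per Mb) became 1.51 in windows of 50 kb, against 1.72 around the comparison group with overlapping intervals, and 0.0365 with knockout peaks scoring at least 100 only, against 0.174 around the comparison group. Both comparison densities include knockout peaks on other wild-type peaks, which the rule keeps out of the isolated windows. At scores of at least 100 no count without those peaks was made. With only knockout peaks on no wild-type peak the order reversed in windows of 50 kb (1.51 against 1.28) and 100 kb (1.338 against 1.333). The window lengths still include the wild-type peaks themselves, so the order at 100 kb cannot be told from these values. The isolated share in the most distal of 5 parts (6.35%) became 5.61% in the most distal of 10 parts, and 15.4% and 3.34% with isolation over 100 and 300 kb. The concentration 4 to 5 kb from the edges (7.60 per Mb) became 4.26 in a band of 3 to 6 kb and 3.46 with knockout peaks scoring at least 60, whose density between 20 and 200 kb was 0.459 per Mb. These last alternatives and the count of knockout peaks on no wild-type peak were chosen after seeing the data. With X included there were 1561 isolated sites. Limits change how many peaks enter; for the shifts beyond that, the cause was not tested. At an unknown depth, absence from the knockout list says only that no peak was called. No paired analysis was possible because there is only 1 library per genotype, which also leaves no replicate to omit.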
